A study of Mus musculus with 24 samples.

Results

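The genes described here are the D cyclins, their kinases, the kinase inhibitors and the Rb1 and E2f1 genes through which they act: Ccnd1, Ccnd2, Ccnd3, Cdk4, Cdk6, Cdkn1a, Cdkn1b, Cdkn2c, Rb1 and E2f1. They were taken by name, 10 genes among the 19351 with a probe set of their own on the array, and a gene with several of these was represented by the brightest on average. Cdkn1a, which encodes the inhibitor p21, has no probe set of its own, since its only one is shared with 4930567H12Rik, so 9 of the 10 genes were measured. RNA came from untreated C57BL/6J mouse embryos of 3 stages, with tissue cut from frozen sections by laser capture and 1 Affymetrix Mouse Gene 1.0 ST array per sample. The groups are the pleuroperitoneal fold at E11.5, the same fold a day later at E12.5, and the diaphragm at E16.5, with 8 arrays each and 24 in all. The titles of the E16.5 samples also read PPF, for pleuroperitoneal fold. No group carries a mutation, a transgene or a treatment, and the number of embryos behind each sample is not stated, so p-values measure the spread between these samples, which may be technical.

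A cell commits to another division in G1 when D cyclins, made in answer to growth signals, activate Cdk4 and Cdk6. These kinases phosphorylate Rb1, which otherwise holds the E2F factors in check, and freed E2F turns on the genes of DNA replication. Cdkn2c, the inhibitor p18, binds Cdk4 and Cdk6 themselves, while Cdkn1a and Cdkn1b, the inhibitors p21 and p27, act on cyclin and kinase complexes. The pleuroperitoneal folds give rise to the connective tissue of the diaphragm, and muscle precursors enter them and divide before they fuse into fibres. In cultured myoblasts Rb1 and Ccnd3 are known to increase as cells leave the cycle for good, and Ccnd1 to decrease.

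Array medians lay between 7.44 and 7.55 on the log2 scale and lower quartiles over genes between 6.40 and 6.64. Arrays have no read depth, and their number limits the precision. The mean of 20 skeletal muscle genes lay between 8.02 and 8.83 at E11.5, between 8.01 and 10.57 at E12.5 and between 11.26 and 11.80 at E16.5. Of these genes, 15 were higher and 2 lower at E16.5 than at E12.5, the lower ones being Myod1 and Pax7. For 18 hepatocyte genes the E11.5 means were 6.71 to 6.98, the E12.5 means 7.48 to 11.46 and the E16.5 means 8.92 to 10.87, and 15 of them were higher at E16.5 than at E12.5. Of 15 endothelial genes, 12 were higher and 1 lower at E16.5 than at E12.5. Of 17 genes of fold mesenchyme, 10 were lower and 5 higher, with a median log2 change of -0.77. The mean of 10 red blood cell genes lay between 8.96 and 10.72 at E12.5 and between 7.48 and 9.06 at E16.5, and 3 of them were lower and 0 higher. The other 7 were not called at E16.5 against E12.5. The list's median log2 change was -0.05 and its lowest -5.67, so the lower mean rests on a few genes. Over all genes, 11.49% were called higher and 15.6% lower in this comparison, by the limma test given below. At E12.5 the highest liver means belonged to replicates 2 and 4. Defining liver genes Alb and Afp lay below the lower quartile in more than 4 of 8 arrays at E11.5. The E16.5 arrays form 2 sets, replicates 1 to 4 and 5 to 8, which the labels do not explain, and calls of the 9 genes that are lost without one set are given with that set left out. The Y-linked mean was high on 6 of 8 arrays at E11.5, 4 of 8 at E12.5 and 3 of 8 at E16.5, where the 3 are among replicates 1 to 4 and replicates 5 to 8 have 0. What part these cell types and sex have in the results was not tested, beyond fits with the hepatocyte or Y-linked mean as a covariate. The hepatocyte means of E11.5 and E16.5 did not overlap, so in that comparison stage and this covariate can hardly be separated. A call lost with it therefore decides nothing about its cause. In bulk tissue, fewer cells of a type and less RNA per cell cannot be told apart, which holds for every value below.

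Promoter sequences from RefSeq on GRCm38.p6, each 300 bases long with 250 before the start of the transcript, were listed for 6 of the 9 measured genes, in 8 windows. Cdk4 is shown first because its window at chr10:127063285-127063584 on the plus strand holds 4 copies of the E-box CACGTG, a sequence read the same on both strands and printed in capitals. The second of the Cdkn2c windows, at chr4:109665323-109665622 on the minus strand, is the only one of the 8 windows listed with an E2F motif. This window has 1 E-box as well. Both motifs are in capitals.
Cdk4 promoter: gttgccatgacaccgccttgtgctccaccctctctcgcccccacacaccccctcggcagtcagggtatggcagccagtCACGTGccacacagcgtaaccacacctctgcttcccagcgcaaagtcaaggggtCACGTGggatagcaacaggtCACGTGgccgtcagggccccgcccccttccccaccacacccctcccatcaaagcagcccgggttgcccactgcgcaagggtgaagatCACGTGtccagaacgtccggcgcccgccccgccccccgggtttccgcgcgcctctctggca
Cdkn2c promoter: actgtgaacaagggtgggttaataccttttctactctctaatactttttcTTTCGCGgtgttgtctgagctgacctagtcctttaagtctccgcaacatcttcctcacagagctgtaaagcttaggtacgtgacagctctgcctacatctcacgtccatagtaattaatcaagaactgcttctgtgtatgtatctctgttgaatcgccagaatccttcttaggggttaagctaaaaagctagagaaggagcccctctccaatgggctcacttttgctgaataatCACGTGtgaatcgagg
The E-box was present in 7.15% of all 32851 promoter windows of this length, and 4 or more copies were present in 8 windows (0.0244%). Cdk6 had 1 E-box, and none was found in these windows of E2f1, Ccnd3 and Cdkn1b. Only the listed windows were searched, and whether each holds the main start site of its gene was not examined. The lack of an E2F motif in the E2f1 window therefore says nothing of other start sites of that gene. The E2F motif was searched as TTTCGCG or TTTGGCG on either strand, where it reads CGCGAAA or CGCCAAA, and was present in 2.37% of windows and 2.68% of genes. Among genes named below as targets of E2F in S phase, which were listed from general knowledge, 11 of the 23 with a promoter window had it, against 0 of 14 mitotic genes. In the list of further G1 kinase, Rb and E2F family genes below, it was present in 7 of 20. A match is a description of letters and not a bound site. The motif was present both in genes that fell at E16.5 and in genes not called there, among them Pola1, E2f2, Rbl1 and Tfdp2. Mnat1, which also has it, was called higher at E16.5 than at E11.5. Whether the motif goes with a fall was not tested. Of the genes further down the pathway, 3 that fell at E16.5 are shown by 27 bases around the motif: Uhrf1 at chr17:56304118-56304144 (plus strand), Rfc3 at chr5:151651202-151651228 (minus strand) and Cdc25a at chr9:109875502-109875528 (plus strand), with the motif in capitals.
Uhrf1 site: ccgagtcgggTTTCGCGcgcccaggcg
Rfc3 site: cgtcgcacgcTTTCGCGctcgcgggaa
Cdc25a site: gtgaattccgTTTGGCGccaactagga

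In the diaphragm at E16.5, against the fold at E12.5, 2 of the 3 D cyclins and 1 of their 2 kinases fell, and the inhibitors Cdkn1b and Cdkn2c and the Rb1 gene rose. Ccnd2 fell by 1.48, Cdk4 by 1.31 and Ccnd1 by 0.56 on the log2 scale, whereas Rb1 rose by 1.30, Cdkn2c by 1.13 and Cdkn1b by 0.51. Ccnd3, Cdk6 and E2f1 did not pass the test. Thus 3 of the 9 measured genes were higher and 3 lower at E16.5 than at E12.5, by limma with Benjamini-Hochberg adjustment over all genes at a threshold of 0.05. Of all 19351 genes, 11.49% were called higher and 15.6% lower in this comparison, 27.1% in either direction. The median log2 change of the 9 genes was -0.16, beside -0.02 over all genes. Against E11.5, 2 genes were higher at E16.5 (Rb1 and Cdkn2c) and 3 lower (Ccnd1, Ccnd2 and Cdk4), where 13.8% of all genes were called higher and 19.6% lower, 33.5% in either direction. The arrays of E16.5 did not overlap those of the earlier stage for 3 of the 9 genes, Ccnd2, Cdk4 and Rb1, in both comparisons. Over all genes that share was 10.1% against E12.5 and 9.08% against E11.5. These comparisons share the E16.5 arrays.

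**Figure D1:**
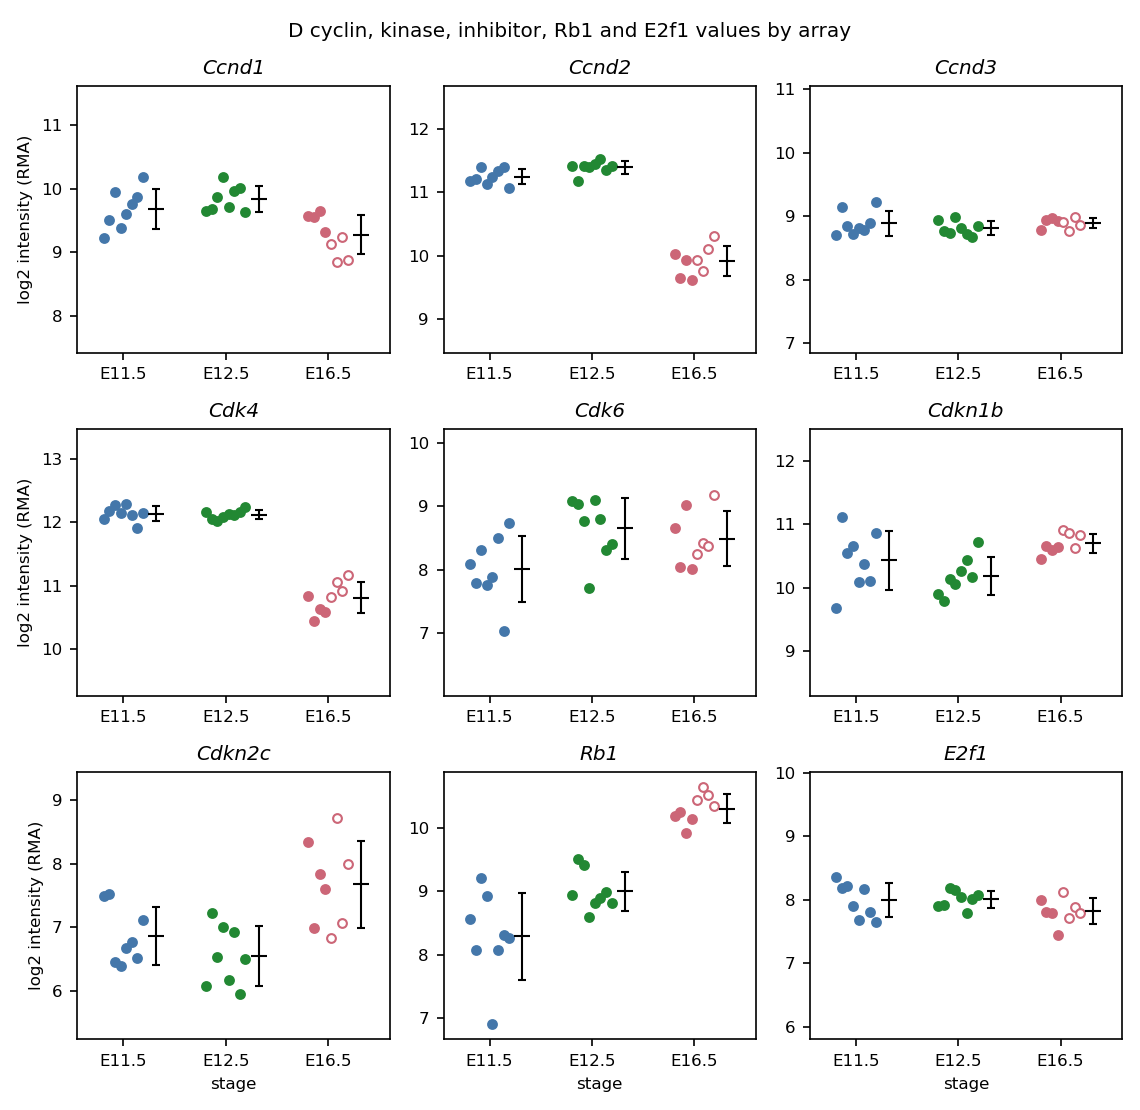
Log2 intensity of the 9 measured genes on each array (1 point per array, 8 per stage), by stage on the horizontal axis, with the mean and SD as black bars; open points at E16.5 are replicates 5 to 8. Every panel spans the same number of log2 units, and the E16.5 points of Ccnd2 and Cdk4 lie below, and those of Rb1 above, all points of both earlier stages.

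Among the D cyclins, the activating partners of the kinases, Ccnd2 changed most. Its log2 values had a lowest, median and highest of 11.07, 11.23 and 11.40 at E11.5, of 11.18, 11.42 and 11.53 at E12.5, and of 9.62, 9.93 and 10.31 at E16.5. All E16.5 arrays were below all others, while the fold stages overlapped. Ccnd2 was 2.79-fold lower at E16.5 than at E12.5 (log2 change -1.48, SE 0.08, adjusted p = 1.61e-12) and 2.51-fold lower than at E11.5 (-1.33, adjusted p = 5.59e-12). These calls were kept in all 40 alternatives tried.

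Ccnd1, the D cyclin most closely tied to growth factor signals, had log2 values with a lowest, median and highest of 9.22, 9.68 and 10.17 at E11.5, of 9.62, 9.78 and 10.18 at E12.5, and of 8.85, 9.28 and 9.64 at E16.5. The E16.5 arrays reached down furthest but overlapped both fold stages. Ccnd1 fell by 0.56 (SE 0.14, adjusted p = 0.00241) at E16.5 against E12.5, which is 1.48-fold, and by 0.41 (adjusted p = 0.0217) against E11.5. Within E16.5, replicates 1 to 4 lay at 9.32 to 9.64 and replicates 5 to 8 at 8.85 to 9.23, with no overlap. Without replicates 5 to 8 the Ccnd1 changes at E16.5 were -0.31 against E12.5 (adjusted p = 0.138) and -0.16 against E11.5 (0.452), and without replicates 1 to 4 they were -0.81 and -0.66. The call against E11.5 was also lost without E11.5 replicate 8 or without E16.5 replicate 6, with the hepatocyte or the Y-linked mean as a covariate (adjusted p = 0.376 and 0.0689) and with an unequal-variance test (0.0663).

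Ccnd3, the D cyclin known to persist in differentiating muscle, varied little. Its log2 values had a lowest, median and highest of 8.71, 8.83 and 9.23 at E11.5, of 8.68, 8.80 and 8.99 at E12.5, and of 8.77, 8.91 and 8.99 at E16.5. The 3 stages overlapped throughout. The log2 change of Ccnd3 at E16.5 against E12.5 was 0.08, with a 95% interval from -0.07 to 0.23, and that against E11.5 was 0.003, with an interval from -0.15 to 0.15, so a change of the size seen in Ccnd2 lies outside both intervals.

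Whether the cyclins changed by unequal amounts was tested on the difference of their log2 values within each array, with an exact two-sided permutation test over the 8 and 8 arrays and adjustment over the 15 tests made. With 12870 divisions the smallest p this design can give is 0.000155. Relative to Ccnd3, whose own change was near 0, Ccnd2 fell by 1.56 on the log2 scale at E16.5 against E12.5 (adjusted exact permutation p = 0.000389) and Ccnd1 fell by 0.64 (adjusted exact permutation p = 0.000666). Ccnd2 fell more than Ccnd1, by 0.92 (adjusted exact permutation p = 0.000777). Against E11.5 the same 3 differences were -1.33, -0.41 and 0.92, the last as Ccnd1 minus Ccnd2, and all passed, with adjusted exact permutation p of 0.000389, 0.0170 and 0.000777. That of Ccnd1 minus Ccnd3 was -0.17 with an adjusted exact permutation p of 0.258 when E16.5 replicates 5 to 8 were left out.

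Of the kinases that D cyclins activate, Cdk4 fell and Cdk6 did not pass the test. Cdk4 log2 values had a lowest, median and highest of 11.91, 12.15 and 12.28 at E11.5, of 12.02, 12.13 and 12.25 at E12.5, and of 10.45, 10.83 and 11.18 at E16.5. The fold stages overlapped and all E16.5 arrays lay below them. Cdk4 was 2.48-fold lower at E16.5 than at E12.5 (log2 change -1.31, SE 0.08, adjusted p = 1.22e-11) and 2.50-fold lower than at E11.5 (-1.32, adjusted p = 5.45e-12), and both calls were kept in all 40 alternatives.

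Cdk6 log2 values had a lowest, median and highest of 7.04, 7.99 and 8.73 at E11.5, of 7.71, 8.78 and 9.10 at E12.5, and of 8.01, 8.39 and 9.18 at E16.5. The stages overlapped, and E11.5 replicate 7 was the lowest array of all. The log2 change of Cdk6 was -0.16 at E16.5 against E12.5 (95% interval -0.63 to 0.31, adjusted p = 0.685) and 0.48 against E11.5 (0.01 to 0.94, adjusted p = 0.109). Within arrays, the difference Cdk4 minus Cdk6 changed by -1.15 at E16.5 against E12.5 and by -1.80 against E11.5 (adjusted exact permutation p = 0.000389 for both).

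The inhibitors Cdkn2c and Cdkn1b rose at E16.5 against E12.5. Cdkn2c, the Cdk4 and Cdk6 inhibitor whose promoter is printed above, had log2 values with a lowest, median and highest of 6.39, 6.73 and 7.52 at E11.5, of 5.95, 6.52 and 7.24 at E12.5, and of 6.83, 7.73 and 8.73 at E16.5. It was dim in the folds, with 3 arrays at E11.5 and 4 at E12.5 below their array's lower quartile over genes and 0 at E16.5. The E16.5 arrays spread more widely than those of the folds and overlapped both earlier stages. Cdkn2c was 2.19-fold higher at E16.5 than at E12.5 (log2 change 1.13, SE 0.26, adjusted p = 0.00141) and 1.75-fold higher than at E11.5 (0.81, SE 0.26, adjusted p = 0.0167). With the hepatocyte mean per array as a covariate the changes were 0.70 (adjusted p = 0.141) and -0.02 (0.985), and without E16.5 replicates 1 to 4 the change against E11.5 was 0.79 (0.0824). The hepatocyte means of E11.5 and E16.5 did not overlap, so against E11.5 that covariate can hardly be separated from stage.

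Cdkn1b log2 values had a lowest, median and highest of 9.67, 10.47 and 11.12 at E11.5, of 9.80, 10.15 and 10.73 at E12.5, and of 10.45, 10.66 and 10.91 at E16.5. The E16.5 arrays lay close together, inside the range of E11.5. Cdkn1b was 1.43-fold higher at E16.5 than at E12.5 (log2 change 0.51, SE 0.16, adjusted p = 0.0163), and the change against E11.5 was 0.27 (adjusted p = 0.200). A second, dimmer probe set of Cdkn1b had E11.5, E12.5 and E16.5 means of 9.0 ± 0.35, 8.91 ± 0.21 and 9.25 ± 0.33 (SD, n = 8 each). Without E16.5 replicates 5 to 8 the change of Cdkn1b against E12.5 was 0.40 (adjusted p = 0.177), and without the E12.5 arrays richest in liver transcripts, replicates 2 and 4, it was 0.43 (adjusted p = 0.0708).

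Rb1, which the kinases inactivate, was higher on every E16.5 array than on any fold array. Its log2 values had a lowest, median and highest of 6.90, 8.28 and 9.20 at E11.5, of 8.60, 8.91 and 9.50 at E12.5, and of 9.91, 10.29 and 10.63 at E16.5. The fold stages overlapped, and the lowest array was E11.5 replicate 5. Rb1 was 2.47-fold higher at E16.5 than at E12.5 (log2 change 1.30, SE 0.21, adjusted p = 4.03e-05) and 4.04-fold higher than at E11.5 (2.01, SE 0.21, adjusted p = 5.26e-08), in all 40 alternatives. Within E16.5, replicates 1 to 4 lay at 9.91 to 10.25 and replicates 5 to 8 at 10.33 to 10.63. The change against E12.5 was 1.13 without replicates 5 to 8 and 1.48 without replicates 1 to 4.

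E2f1, the activating factor that Rb1 binds, had log2 values with a lowest, median and highest of 7.65, 8.04 and 8.36 at E11.5, of 7.80, 8.03 and 8.19 at E12.5, and of 7.45, 7.80 and 8.13 at E16.5. The stages overlapped, and E2f1 did not pass the test at E16.5 against E12.5 (log2 change -0.19, 95% interval -0.40 to 0.02, adjusted p = 0.200) or against E11.5 (-0.18, adjusted p = 0.199). Within arrays Rb1 rose relative to E2f1 by 1.49 at E16.5 against E12.5 and by 2.19 against E11.5 (adjusted exact permutation p = 0.000389 for both).

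Between the fold stages no gene of the set passed the test. At E12.5 against E11.5, 0 of the 9 genes were higher and 0 lower by limma's adjusted p, where 0.331% of all genes were called higher and 0.0568% lower, 0.388% in all. At an unadjusted p under 0.05 there were 2 higher and 0 lower, beside 1214 higher and 1575 lower of all 19351 genes. None had stages that did not overlap, beside 0.129% of all genes. The 2 were Rb1, with a log2 change of 0.71 (95% interval 0.27 to 1.15, adjusted p = 0.157), and Cdk6, with 0.64 (0.17 to 1.1, adjusted p = 0.213). The intervals for Cdk4 ran from -0.19 to 0.16 and those for E2f1 from -0.20 to 0.23. In the tests on differences within arrays, Rb1 rose relative to E2f1 by 0.70 at E12.5 against E11.5 (adjusted exact permutation p = 0.0170). The log2 value of Cdk4 relative to Cdk6 changed by -0.65 (adjusted exact permutation p = 0.0254). Ccnd2 rose relative to Ccnd3 by 0.23 (adjusted exact permutation p = 0.0472), a difference that did not pass without any one of 9 of the 16 arrays.

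**Figure D2:**
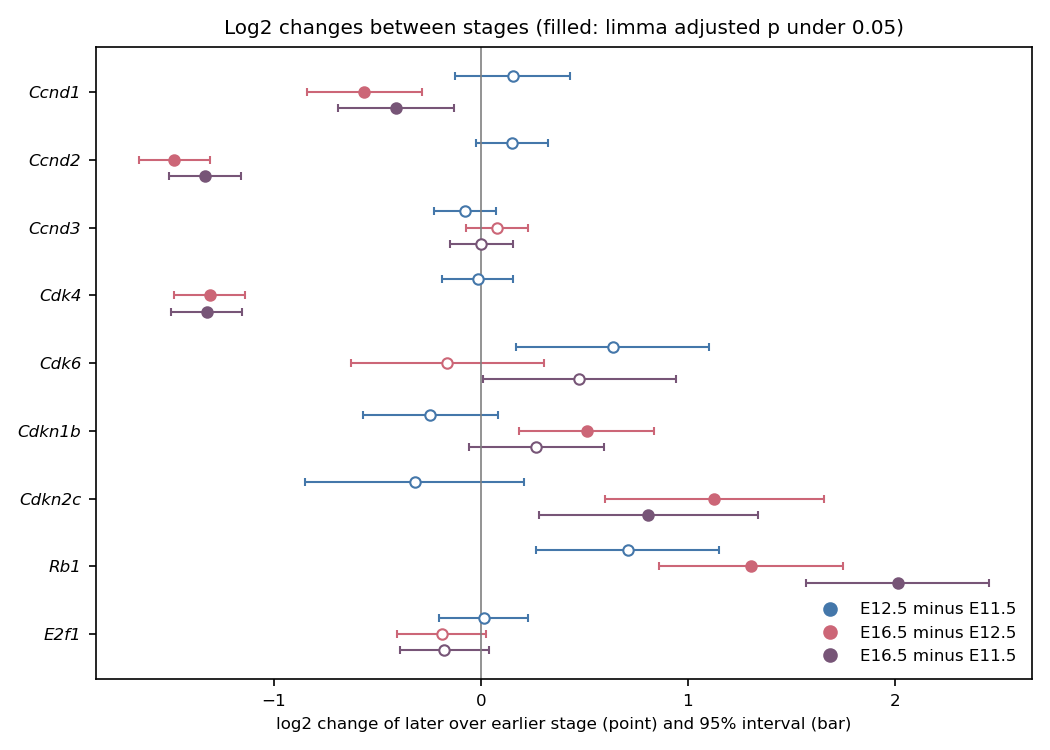
Log2 change of each measured gene in the 3 stage comparisons, later over earlier stage, with 95% intervals from limma; filled points have an adjusted p under 0.05. The filled points of Ccnd1, Ccnd2 and Cdk4 lie left of 0 and those of Cdkn1b, Cdkn2c and Rb1 right of it, and no point of E12.5 over E11.5 is filled.

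The other genes of the pathway were counted in lists written from general knowledge. Of 26 further genes of G1 kinases and the Rb and E2F families, 9 were lower and 1 higher at E16.5 than at E12.5, and 7 were lower and 3 higher than at E11.5, with median log2 changes of -0.24 and -0.16. Called in either direction were 38.5% of the list in both comparisons, beside 27.1% and 33.5% of all genes, and the share higher against E11.5 was below the 13.8% of all genes. The largest falls against E12.5 were in Cdc25a (-1.17, adjusted p = 2.72e-07), the phosphatase that activates Cdk2, in Ccne1 (-0.97), the cyclin E that follows the D cyclins, and in E2f5 (-0.93), a repressive E2F. The activator E2f3 fell by 0.71, the repressors E2f8, E2f4 and E2f7 by 0.52, 0.46 and 0.43, and Tfdp1, the partner that E2Fs need to bind DNA, by 0.40. The E2f3 call was lost in 8 of 40 alternatives, among them each E16.5 set left out and the hepatocyte covariate. That of E2f4 was lost in 2, with the hepatocyte covariate and without E16.5 replicates 5 to 8, and that of E2f8 in 1, without E16.5 replicates 1 to 4. Cdk2 fell by 0.40 (adjusted p = 0.0402), a call lost in 15 of 40 alternatives. E2f6, a repressor that does not bind Rb1, rose by 0.62 (adjusted p = 0.0474), a call lost in 19 of 40 alternatives. Against E11.5, the higher genes were Mnat1 (0.46), a part of the kinase that activates other cyclin-dependent kinases, and the inhibitors Cdkn2d (0.40) and Cdkn1c (0.33). The Mnat1 call was lost in 3 alternatives, among them E16.5 replicates 5 to 8 left out, and the Cdkn2d call in 1, the hepatocyte covariate. The count of lower genes against E11.5 was 4 without E16.5 replicates 1 to 4 and 1 with the hepatocyte mean as a covariate.

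Downstream of E2F the falls were broad. Of 27 S phase genes that E2F is known to control, 24 were lower and 0 higher at E16.5 than at E12.5, and 23 were lower and 0 higher than at E11.5. Their median log2 changes were -0.86 and -0.72, beside -0.02 and -0.08 over all genes. The shares called lower were 88.9% and 85.2% of the list, beside 15.6% and 19.6% of all genes. Chek1, a checkpoint kinase of DNA replication, had a mean log2 value of 7.54 ± 0.64 at E16.5 and 9.16 ± 0.27 at E12.5 (SD, n = 8 each), a fall of 1.63 (adjusted p = 8.49e-07). Gins1 and Mcm4, parts of the replicative helicase, fell by 1.29 and 1.22, and Uhrf1, which keeps DNA methylation through replication, by 1.25. Rfc3, which loads the sliding clamp and was added for the motif printed above after its values were seen, fell by 1.16.

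Of 17 genes of mitosis, 16 were lower and 0 higher at E16.5 than at E12.5, and all 17 were lower than at E11.5, with median log2 changes of -0.75 and -0.77. Over all genes, 15.6% and 19.6% were called lower in these comparisons. The spindle checkpoint kinases Bub1, Bub1b and Ttk fell by 1.38, 1.08 and 1.04 against E12.5, and the mitotic kinase Plk1 by 0.99. Mki67, the usual stain for dividing cells, singled out after its values were seen, fell by 0.40 (adjusted p = 0.0452), but its change was 0.02 without E16.5 replicates 1 to 4. Its call against E12.5 was kept in 20 of 40 alternatives, and was lost without any 1 of 14 of the 24 arrays. The means of these lists separated the E16.5 sets: replicates 1 to 4 lay at 8.60 to 8.92 for E2F targets and 9.12 to 9.22 for mitosis, and replicates 5 to 8 at 9.07 to 9.42 and 9.46 to 9.77. The skeletal muscle mean ran the other way, 11.65 to 11.80 in replicates 1 to 4 and 11.26 to 11.48 in replicates 5 to 8, as did the endothelial mean, 8.74 to 9.06 and 8.10 to 8.42. The red blood cell mean ran the same way as the dividing-cell lists, 7.48 to 8.17 and 8.18 to 9.06. Without replicates 1 to 4, 17 E2F targets and 12 mitotic genes were lower than at E12.5, and 15 E2F targets were lower than at E11.5. Of the mitotic genes, Ccnb2, Nusap1 and Mki67 lost their calls against E11.5 in that setting. With the hepatocyte mean as a covariate, Aurka, Aurkb, Kif11, Nusap1 and Mki67 lost theirs against E11.5.

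**Figure D3:**
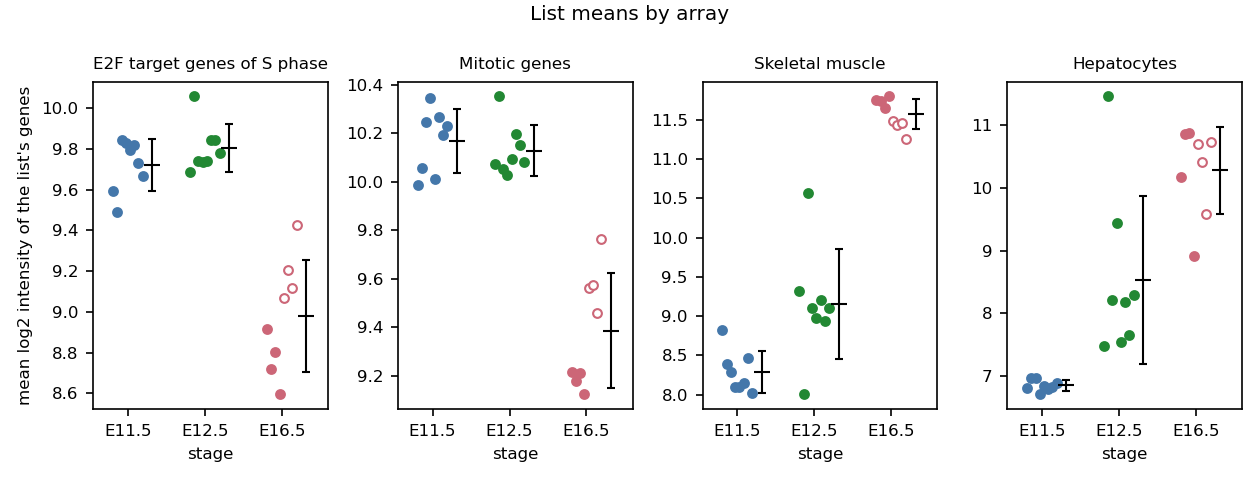
Mean log2 intensity of the genes of 4 lists on each array, by stage, with the mean and SD over 8 arrays as black bars; open points at E16.5 are replicates 5 to 8. The E16.5 points of the E2F target and mitotic lists lie below all fold points, with the open points above the filled ones, and the skeletal muscle points lie above all fold points.

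Genes that p53 controls, of which Cdkn1a is one, moved in part. Of 15 measured, 5 were higher and 1 lower at E16.5 than at E12.5, and 6 were higher and 1 lower than at E11.5, in all 40.0% and 46.7% of the list. Of all genes, 27.1% and 33.5% were called in these comparisons, and the list's median log2 changes were 0.14 and 0.05. Ccng1, which encodes cyclin G1, averaged 11.98 ± 0.15 at E16.5 and 10.15 ± 0.33 at E12.5 (SD, n = 8 each), a rise of 1.84 (adjusted p = 6.2e-09). It also rose by 0.80 at E12.5 against E11.5 (adjusted p = 0.0361), the 1 call among all 111 pathway genes at that step, which was lost in 15 of 40 alternatives. Sesn1, a stress protein that restrains growth signals, rose by 1.01 and the antiproliferative Btg2 by 0.93 at E16.5 against E12.5, while Plk2, a polo-like kinase, fell by 1.55.

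Of 15 genes for the turnover of D cyclins and p27, 4 were higher and 4 lower at E16.5 than at E12.5, in all 53.3% beside 27.1% of all genes. Skp2 and Cks1b, which together mark p27 for destruction, fell by 0.87 and 1.12, and Usp2, an enzyme that removes ubiquitin from cyclin D1, rose by 1.89 (adjusted p = 3.94e-08). Cul4b, a scaffold of ubiquitin ligases, fell by 0.91. Against E11.5 there were 3 higher and 5 lower, in all 53.3% beside 33.5% of all genes. Without E16.5 replicates 1 to 4 there were 2 higher against E12.5. Of 14 genes linked to quiescence, 3 were higher and 1 lower at E16.5 than at E12.5, and 4 were higher and 1 lower than at E11.5. These are 28.6% and 35.7% of the list, close to the 27.1% and 33.5% of all genes. Pdk4, which turns cells from glucose to fat as fuel, rose by 3.31, a size that is uncertain since it lay below the lower quartile in more than 4 of 8 arrays at E12.5. Gas6, a ligand of receptor kinases named for its rise in growth arrest, rose by 2.54, Btg2 is shared with the p53 list, and Gas2, a cytoskeletal growth arrest gene, fell by 0.77.

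**Figure D4:**
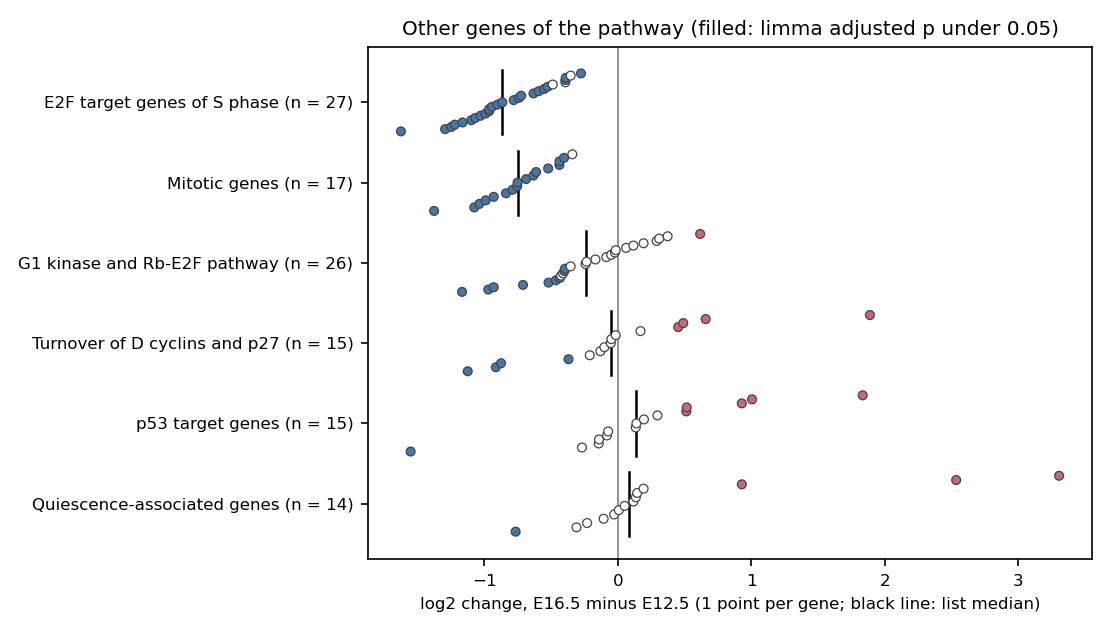
Log2 change at E16.5 over E12.5 of each measured gene in 6 lists (1 point per gene, blue for lower and red for higher with a limma adjusted p under 0.05, white otherwise); black lines are list medians. The E2F target and mitotic points all lie left of 0, whereas the other 4 lists have points on both sides.

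The genes whose pattern over the 24 arrays came closest to that of a changed gene were found by the mean absolute difference of log2 values after each gene was centred on its own mean. Of the 19350 other genes, Cdk4 was the nearest to Ccnd2, at 0.125, followed by Gpc3 (0.157), a glypican that limits growth, and Actn1 (0.161), a cytoskeletal actinin. Ccnd2 was likewise nearest to Cdk4, before Tubb5 (0.126), a tubulin, and Ptn (0.127), the growth factor pleiotrophin. With either set of E16.5 arrays left out, Cdk4 was second to another gene. Nearest to Rb1 were Nrk (0.239), Exoc6 (0.275) and Acat1 (0.296), and nearest to Cdkn2c were Inpp5k (0.328), Leap2 (0.352) and Fibin (0.361).

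Within a stage, the relation of E2F targets to Ccnd1 and E2f1 was computed across the 8 arrays. The correlation of Ccnd1 with the E2F target mean was r = 0.27 at E11.5 and -0.12 at E12.5 (rho 0.26 and 0.02), and that of E2f1 was -0.26 and -0.39 (rho -0.02 and -0.33). None of the 4 passed an exact permutation test, with adjusted p of 0.710 to 0.799 for r and 0.977 for rho. Without the 2 arrays farthest from the median of the list mean, r was -0.64 and 0.23 for Ccnd1 and 0.74 and -0.38 for E2f1 at E11.5 and E12.5. No correlation was computed at E16.5 because its arrays form separate sets.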

How the data were processed

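RNA of 24 laser-captured samples, 8 per stage, was measured on 1 array each, and stages were taken from the labels. The authors deposited 1 log2 intensity per probe set and array. The submitters' processing notes name RMA, R 2.9.2 and Expression Console 1.1, without their roles. RMA corrects background, equalises the distributions of arrays and summarises probes by median polish. Whether all arrays were normalized together is not given in the sources used here, and the log2 scale is inferred from values that run from 2.56 to 14.1. There were 0 missing values.

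Of 24200 probe sets, 20760 had 1 gene symbol, 1140 had several and 2300 had none. Only the first kind was used, with the highest-mean probe set for the 804 genes that had several, which gave 19351 genes. No gene was filtered out. Stage differences came from limma 3.58.1 under R 4.3.3 (eBayes after lmFit, all 24 arrays, 1 coefficient per stage, no covariate, two-sided), with Benjamini-Hochberg adjustment over all genes and a threshold of 0.05. Errors of changes are SE and intervals are at 95%. Exact permutation tests, list means and promoter searches were made in Python 3.11.15 with numpy 2.4.6 and pandas 2.3.3, and figures with matplotlib 3.10.9. The scripts were tested on simulated data.

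The genes and lists were chosen with earlier results of these data known. All 10 genes were to be described, together with any gene of the G1 list, up to 4 genes of each other list with the largest change among those past the threshold, and the 3 genes most like each member that changed 2-fold or more. Mki67 and Rfc3 fall outside this rule. Planned tests with Cdkn1a, of its change against Cdkn1b and Cdkn2c and of its relation to muscle and p53 target means, could not be run because it has no probe set of its own, and 15 tests on differences and 4 relations remained. Entries of the lists without such a probe set are not analysed here. Equal replicate numbers did not pair arrays across stages: the correlation of their deviations from stage means ran from -0.28 to 0.09 over 24 pairs, none over 0.1. Alternatives covered the stages fitted, normalization, centring, dim genes, probe sets, moderation, weights, covariates and arrays left out. Those for the genes of like pattern were chosen after the data were seen.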

Additional observations from a re-analysis of the deposited data

How the results depend on the processing

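Ccnd2, Cdk4 and Rb1 kept their calls at E16.5 in all 40 alternatives. Among the 9 genes, 1 rather than 2 were higher at E16.5 than at E11.5 with an unequal-variance test, the hepatocyte covariate or E16.5 replicates 1 to 4 out. With the dimmest 50% of genes out the count was also 1, but there Cdkn2c was itself among the genes left out and was not tested. Leaving out 1 array gave 2 each time. Among 111 other pathway genes, the hepatocyte covariate gave 9 higher and 34 lower at E16.5 than at E11.5, against 14 and 54. In the lists, lower genes at E16.5 against E11.5 fell to 4 of the G1 list and 15 E2F targets without E16.5 replicates 1 to 4, and to 1 of the G1 list with the hepatocyte covariate, against 7 and 23. The 1 gene higher at E12.5 than at E11.5 became 0 with only those stages fitted, the replicate block, an unequal-variance test, the hepatocyte covariate, E12.5 replicates 2 and 4 out or either E16.5 set out, and 0 to 1 when 1 array was left out. The cause was not tested. Calls of Ccnd1 at E16.5 against E11.5 were lost in 6 alternatives (adjusted limma p up to 0.452), E16.5 replicates 5 to 8 out among them, and Cdkn1b at E16.5 against E11.5 passed as a mean over probe sets (0.0378).

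Uncalled log2 changes near 0 turned sign. For Cdk4 at E12.5 against E11.5 (-0.01) they were 0.010 with array weights, 0.0052 with the hepatocyte covariate and 0.0047 without E12.5 replicates 2 and 4, and -0.047 to 0.0063 with 1 array out. For E2f1 at E12.5 against E11.5 (0.01) they were -0.045 after quantile normalization, -0.017 and -0.058 with arrays centred on the median and 75th percentile, -0.012 with array weights, -0.041 with the hepatocyte covariate, and -0.036 to 0.066 with 1 array out. For Ccnd3 at E16.5 against E11.5 (0.003) they were -0.017 after quantile normalization, -0.016 and -0.020 with centring, -0.019 and -0.0083 with the hepatocyte and Y-linked covariates, -0.0068 without E16.5 replicates 1 to 4, and -0.024 to 0.051 with 1 array out. Cdkn2c at E16.5 against E11.5 was -0.023 with the hepatocyte covariate. Without E16.5 replicates 1 to 4, Mki67 changed by 0.017 at E16.5 against E12.5 and by 0.033 against E11.5.

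Of the differences within arrays, Ccnd1 minus Ccnd2 at E12.5 against E11.5 (0.0046) was -0.062 without E12.5 replicates 2 and 4, and -0.052 to 0.10 with 1 array out. Ccnd1 minus Ccnd3 at E16.5 against E11.5 was -0.17 (adjusted exact permutation p = 0.258) without E16.5 replicates 5 to 8. Taken as pairs by replicate number (replicate block), it was -0.41 (0.0670), Rb1 minus E2f1 at E12.5 against E11.5 was 0.70 (0.0541), and Ccnd1 minus Ccnd3 at E12.5 against E11.5 passed at 0.23 (0.0488); with 1 array out this last was 0.17 to 0.28. Ccnd2 minus Ccnd3 at E12.5 against E11.5 was 0.23 (0.0511) with E16.5 replicates 5 to 8 out, through the adjustment alone, and 0.15 to 0.25 with 1 array out. The relation of Ccnd1 to E2F targets at E12.5 (-0.12) was 0.024 as rho and -0.31 to 0.36 with 1 array out. The replicate block, with numbers that do not pair the arrays, lost or gained no limma call of the 9 genes, and lost that of Ccng1 at E12.5 against E11.5. The number of arrays limits the precision throughout.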
